A study of Mus musculus with 8 samples.

Results

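The vehicle-treated testis captures are laser-cut areas of the seminiferous tubule from 4 mice that received corn oil and no DEHP, out of 8 mice in the series. They were chosen by treatment alone: on each of 8 two-channel arrays the channel that held vehicle RNA was read, whichever dye it carried, and the DEHP channel was left out. The mice were male C57BL/6J, gavaged daily with the oil for 21 days and aged 21 weeks at sampling, and the other mice of the series received DEHP at 200 mg/kg/day in the same oil. The captures are numbered 1 to 4 after the vehicle mouse. Per the labels, each came from a stained frozen section of the right testis, from a single cap per mouse, and its RNA was amplified in 2 rounds. The tissue label names areas rich in Sertoli cells in the middle layer of the tubule wall, whereas the protocol text speaks of capturing Leydig cells. That mismatch is why the captures are set here against markers of each cell type.

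In the seminiferous tubule, Sertoli cells stand on the basement membrane and reach to the lumen, and germ cells develop between them from spermatogonia through spermatocytes to round and elongating spermatids. In the last step histones are replaced by transition proteins and then by protamines, which pack the sperm DNA. Leydig cells, which make testosterone, lie outside the tubules with vessels and macrophages, and contractile peritubular myoid cells wrap each tubule. A laser spot through the middle of the tubule wall therefore crosses Sertoli cell bodies and the germ cells they hold. In such bulk RNA, fewer cells of a type and less RNA per cell cannot be told apart.

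Each capture was measured on 2 arrays, with the dyes swapped. Net intensity, which is the mean spot signal minus the local median background, is the scale for levels below, as a mean of both arrays. A gene's percentile is the rank of its brightest probe among 41174 non-control probes, so that 100 is the brightest. The median gene of 19505 had a percentile of 66.3, in part because only the brightest probe of a gene counts. Signals were well above background in all 8 vehicle channels for 18998 probes (46.1%) and in none of them for 14002 (34.01%), with 49.8% to 59.5% of spots so per channel and 0 saturated spots. These are ranks of signal and not of transcript number: among 8672 genes with several probes, the brightest and the dimmest probe lay a median of 29.1 percentile points apart, and median probe percentile rose from 28.8 at a GC content up to 35% to 69.3 above 60%. The median SD of a probe's percentile between captures was 2.69 points.

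Spermatid transcripts led every capture. Prm2, which encodes protamine 2, was the brightest gene of all, and Odf2 of the sperm tail, the spermatid linker histone H1f7 and the germ-cell lactate dehydrogenase Ldhc followed. The probes for Prm2 and for Insl3, the Leydig cell hormone discussed below, are shown by the leading 30 of their 60 bases, since one was the brightest gene and the other had the widest range between captures.
Prm2: aatagtcacctgcccaagcaacatcatgtg
Insl3: ctcctggctatgtcattgcaacaacccagt

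The Prm2 probe maps to mouse chromosome 16 between 10469139 and 10469198 in mm7, the build of the array design. Its net intensity was 213042 in capture 1, 287325 in capture 2, 263891 in capture 3 and 295602 in capture 4, a mean of 264965 ± 37129 (SD, n = 4 mice). Capture 1 was the lowest of the 4, and each of the 4 captures had Prm2 at its top. Odf2 read 208622, 250023, 225442 and 276527 in captures 1 to 4. This rests on 1 probe, since the other 3 Odf2 probes lay at percentiles 22.0 to 75.2. H1f7 read 145956, 220937, 187174 and 180158, with capture 2 the highest. Ldhc varied less, with 151359, 145452, 137116 and 143923. For Prm1, the partner protamine, the values were 107295, 168429, 142908 and 144172, and its other 2 probes also lay between percentiles 99.7 and 100.

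Named genes leave out those with clone-like names. With these counted, the 25 brightest genes held 6 of the elongating spermatid list, 1 of the spermatocyte list and 4 ribosomal protein genes. They held 0 of the Sertoli or Leydig lists. The spermatid linker histone Hils1, also of the elongating spermatid list, ranked 26 there and is among the 25 brightest named genes. Besides those above, the 25 brightest named genes held Tnp1, a transition protein, Smcp of the sperm mitochondrial capsule and the acrosomal protease inhibitor Spink2. The radial spoke gene Rsph3a and Gtsf1, which acts with small RNAs in the germ line, were also in that group. Fbp1 of gluconeogenesis and the dynein light chains Dynll1 and Dynlt1b were among them too. With clone-like names counted, the brightest 25 genes made 6.75% ± 0.477 (SD, n = 4) of the net intensity summed over genes. The brightest 100 made 19.1%, the brightest 500 made 50.8% and the brightest 1000 made 68.0%. The order among the brightest named genes moved between captures, as Gtsf1 shows with 140348 in capture 1, 78887 in capture 2, 102495 in capture 3 and 118429 in capture 4.

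**Figure D1:**
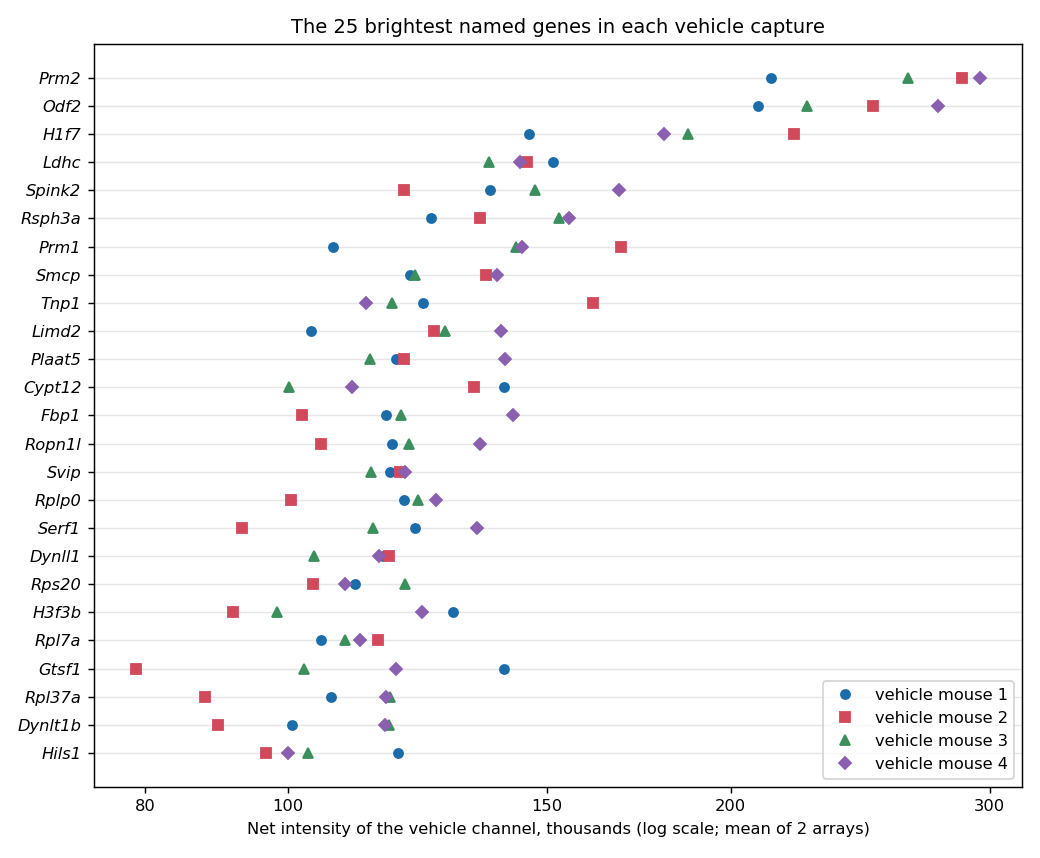
Net intensity (divided by 1000, log axis) of the 25 brightest named genes, with 1 point per vehicle capture (mean of 2 arrays). Prm2 and Odf2 lie above 200 in every capture, and capture 2 has the lowest point for Gtsf1 and the highest for Prm1 and Tnp1.

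Among the cell type lists, those of late germ cells ranked highest, followed by that of Sertoli cells. The median percentile of the list was 97.9 ± 0.186 (SD, n = 4) for elongating spermatids, 96.1 ± 0.377 for round spermatids and 90.6 ± 0.446 for spermatocytes. Sertoli cell genes came next at 81.4 ± 1.25. Red blood cells lay at 67.6 ± 0.371 (6 genes), Leydig cells at 67.1 ± 2.05, spermatogonia at 66.3 ± 1.11 and peritubular myoid cells at 66.2 ± 1.74, which is at the level of all genes. Macrophages (58.7 ± 1.13), lymphocytes (55.1 ± 3.40) and endothelial cells (49.4 ± 0.267) were below it. Genes that mark liver, skeletal muscle, brain, ovary and kidney, which the captures should lack, had a median of 37.7 ± 3.17 over 45 genes, and epididymal genes of 37.9 ± 6.72. The 3 germ cell lists and the Sertoli list kept this order in each of the 4 captures, whereas Leydig, spermatogonial and myoid lists differed by no more than their spread.

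**Figure D2:**
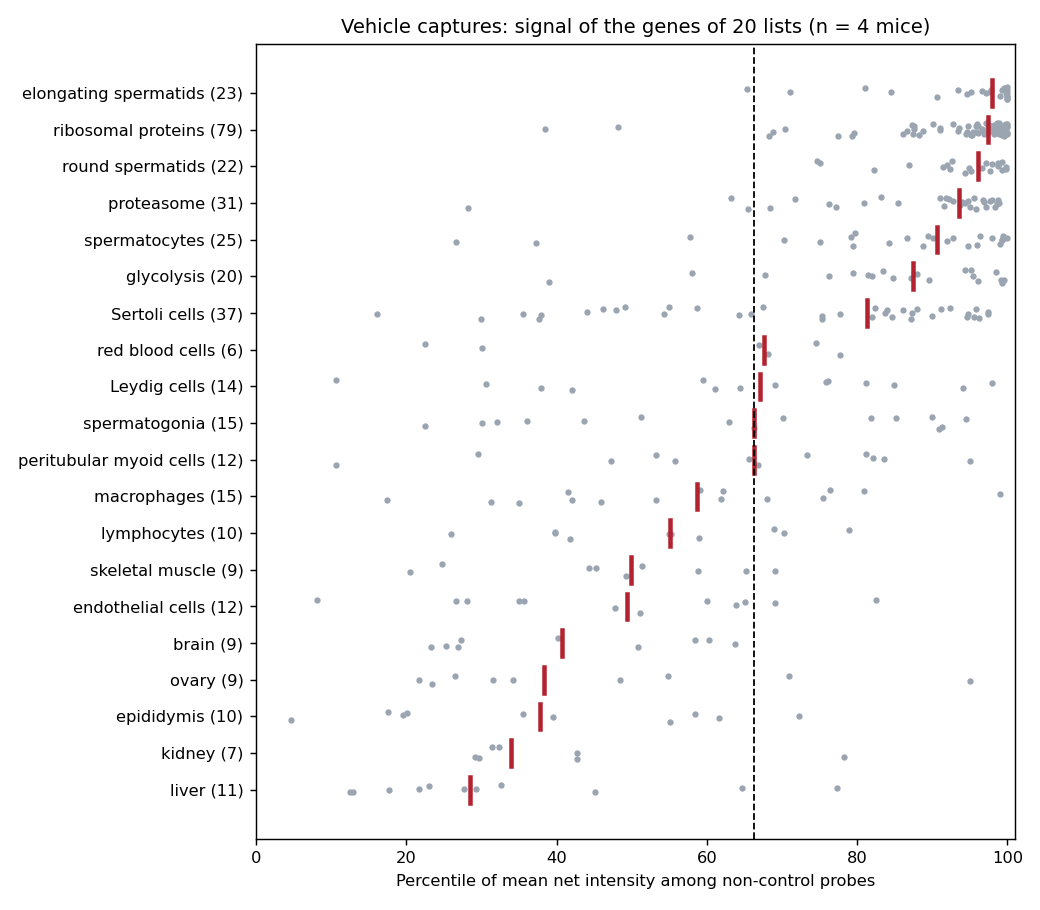
Percentile of mean net intensity for the genes of 20 lists (grey points, genes on the array in brackets), with the list median averaged over 4 captures in red and the median of all genes, 66.3, as a dashed line. Spermatid lists crowd the right edge, the Sertoli list spreads from 16.04 to 97.5, and lists from outside the testis lie mostly left of the dashed line.

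Every one of the 22 round spermatid genes and of the 23 elongating spermatid genes was well above background in all 8 channels. Among round spermatid genes, the acrosome-associated Dkkl1 stood at percentile 99.9, Zpbp2, which helps form the acrosome, at 99.8, and Spaca1 of the acrosome and the spermatid kinase Tssk2 at 99.3. The lowest were Catsper4 (74.6) and Izumo1 (75.1), which encode a sperm calcium channel subunit and the sperm protein that binds the egg. Of the 23 elongating spermatid genes 22 lay above the median of all genes. Tnp2, the other transition protein, was far dimmer than its relatives, with a percentile of 93.4 ± 0.484 and net intensities of 4038, 4096, 3270 and 3660. Of 25 spermatocyte genes 23 were well above background in all channels. Syce1 and Pgk2 led behind Ldhc at 99.5 each, the former a part of the synaptonemal complex and the latter a glycolytic enzyme of meiotic and later germ cells. The recombinase gene Dmc1, active early in meiotic prophase, lay at 26.6 ± 6.14 and was well above background in 1 of 8 channels.

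Spermatogonial genes were mixed. Id4, a regulator found in spermatogonial stem cells, was at 94.4 ± 0.328, and Uchl1, Dmrtb1 and the retinoic acid target Stra8 were at 91.4, 90.9 and 90.0. The other probe lay at 79.2 for Id4, 24.5 for Uchl1 and 62.2 for Dmrtb1. In contrast, the stem cell genes Nanos2 (32.0), Nanos3 (30.1) and Ret (22.4), a subunit of the receptor for GDNF, were not well above background in any channel. The list of spermatogonial genes thus did not stand apart from all genes, with 7 of 15 above the overall median.

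Sertoli cell products were plainly measured. Cst9, a cystatin, read 14756, 10021, 12986 and 17585 in captures 1 to 4. The protease Ctsl read 19250, 9139, 11504 and 15613. Capture 2 was lowest for both, and the highest was capture 4 for Cst9 and capture 1 for Ctsl. Clu, the secreted clusterin, read 5286, 4190, 4770 and 7584, and the defensin Defb19 read 7673, 6299, 9384 and 11655, again with capture 2 lowest and capture 4 highest. Their percentiles were 97.5, 97.4, 94.7 and 96.2. Rhox5, an X-linked homeobox gene under androgen control, was at 95.8 ± 1.04 and Eppin, a protease inhibitor, at 95.6 ± 0.826.

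By role, the 16 genes for secreted proteins and proteases had a median percentile of 84.1 ± 1.102 and the 7 for receptors, channels and junctions 84.1 ± 0.801. The 7 measured transcription regulators had 46.2 ± 1.49. Within that group Rhox5 was the exception, Wt1 (67.5) and Sox9 (65.8), which specify and maintain Sertoli identity, lay near the median of all genes, and Gata1 (46.2) and Gata4 (37.9) lay below. Dmrt1, at 16.04, was not well above background in any of 8 channels. Hormone genes split as well: Inha and Inhbb, subunits of inhibin and activin, were at 83.9 and 82.0, and Amh, a product of the immature Sertoli cell, was at 47.9 with 5 channels well above background. Fshr, the receptor of follicle-stimulating hormone, was at 58.8, and the stem cell niche factors Kitl (37.7) and Gdnf (35.6) were well above background in 1 channel each. The labelled cell type was thus present by its secreted products, while several of its defining regulators were dim on this array.

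Leydig cell genes were neither absent nor uniformly present. Fdx1, the ferredoxin that feeds electrons to steroid-making enzymes in mitochondria, was at 97.9 ± 0.0991 with net intensities of 18085, 13975, 15725 and 17485. Insl3, the hormone of testis descent made by Leydig cells, was at 94.1 ± 2.60. Fabp3 (85.0), a fatty acid carrier, and Cyp17a1 (81.2), the enzyme of androgen synthesis, came next. At the other end Lhcgr, the receptor through which luteinising hormone acts, was at 10.7, and Cyp11a1, which makes the opening cut in cholesterol, was at 30.6 by 2 probes. Neither was well above background in any channel, whereas 10 of the 14 Leydig genes were so in all 8. Summed over the list, Leydig net intensity was 28237 in capture 1, 19499 in capture 2, 18931 in capture 3 and 31875 in capture 4, against 93696, 57116, 69755 and 96663 for the Sertoli list and 1324729, 1609394, 1404263 and 1528933 for the elongating spermatid list. Most of the Leydig sum came from Fdx1 and from Insl3, which read 6745, 3864, 1863 and 10710 in captures 1 to 4. The lists hold 14, 37 and 23 genes on the array, so the sums are of signal and give no ratio of cells. The part of Leydig cells in the Sertoli values was not tested.

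Among peritubular myoid genes, the myosin light chain Myl9 was at 95.0 and the smooth muscle genes Tagln, Acta2 and Cnn1 were at 83.6, 82.2 and 81.2, while Des (10.6) and Smtn (29.5), encoding desmin and smoothelin, were not well above background. The lists of macrophages, lymphocytes and endothelium were split. Well above background in all 8 channels were 8 of 15 macrophage, 5 of 10 lymphocyte and 5 of 12 endothelial genes, among them the macrophage gene Adgre1 (76.4), the T cell genes Cd4 (70.2) and Cd3e (69.0) and the VEGF receptor genes Kdr (69.1) and Flt1 (65.1). C1qa (31.3), Itgam (17.4), Cd3g (26.0), Pecam1 (26.6), Cdh5 (28.1) and Tie1 (8.13) were not so in any channel. The signals of Adgre1, Cd4, Cd3e, Kdr and Flt1 rest on the brightest probe. The other probe lay at 17.9 for Adgre1, 16.4 for Cd4, 11.6 for Cd3e and 8.77 for Kdr. For Flt1 the other 4 probes lay at 25.2 to 38.1. The same limit holds for Tagln, whose other probe lay at 12.2, and for Acta2, whose other 4 lay at 19.5 to 74.3. The highest member of each list was well above its median. Aif1, used as a macrophage marker, was at 99.1 ± 0.122 with 40566, 31768, 29881 and 32630, and its other probe was at 89.1. Cd3d of the T cell receptor complex was at 78.9, Vwf of endothelium at 82.5, and the beta globin gene Hbb-bt at 77.7. The other 2 Vwf probes lay at 29.8 and 64.9, and the other 3 of Hbb-bt at 53.5 to 64.9. Gdf9, listed for the oocyte, was at 95.0 ± 1.01 with 4137, 5902, 7285 and 6552, unlike its list, whose median was 38.4. The probes for Aif1 and Gdf9 are shown because their signals run against the rest of their lists, again by the leading 30 of 60 bases.
Aif1: gagcttctgatgacagcagcatggaaaaaa
Gdf9: acagatttgttagcataagtctcgagtaga

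X-linked genes, which are silenced in spermatocytes during meiosis, were few among the brightest genes. There were 16 of them (1.6%) among the 1000 brightest genes, against 711 of 19505 genes (3.65%) on the array. Their median percentile was 56.6, the lowest of the 21 chromosomes, and the other chromosomes ranged from 61.6 to 71.8. The 16 Y-linked genes had a median of 70.6. The X-linked Akap4 of the sperm tail sheath was at 94.6, and its transcription after meiosis is known.

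The promoters of spermatid genes were then read for a motif, since these genes shared both cell type and high signal. Cyclic AMP response elements, bound by CREM in spermatids, have the core TGACNTCA when the central base is left free, and this string was sought on both strands from 250 bases before to 50 bases after each RefSeq start site (GRCm38.p6). It was found for 9 of 19 elongating spermatid genes and for 8 of 19 round spermatid genes with a promoter in that table. The share over all 27025 genes was 10.0%. It was found for 2 of 22 spermatocyte genes, 1 of 26 Sertoli genes and 2 of 11 Leydig genes. The 6-base core TGACGT, which overlaps it where N is G, was found in 7.51% of all 32851 promoters, in 1 of 26 promoters of elongating and in 2 of 21 of round spermatid genes. Crem itself was at percentile 92.6 ± 0.591. A match is a string in the sequence and not a bound site.

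The 120 bases before the start site are shown for 4 spermatid genes with a TGACNTCA match, for Prm2 and Ldhc, which are among the brightest genes and have none in the stretch shown, and for Insl3, the Leydig gene with the widest range, which has none either. Capitals mark TGACNTCA on either strand, in Ldhc TGACGT, and in Prm2 the other strand of TATAAA, a string held by 13.6% of all promoters. The stretches are chr16:10796824-10796943 (minus) for Prm1, chr1:73015900-73016019 (minus) for Tnp1, chr16:17898517-17898636 (plus) for Tssk2, chr4:56741426-56741545 (minus) for Actl7b, chr16:10792106-10792225 (minus) for Prm2, chr7:46861143-46861262 (plus) for the upstream start of Ldhc and chr8:71689132-71689251 (plus) for Insl3.
Prm1: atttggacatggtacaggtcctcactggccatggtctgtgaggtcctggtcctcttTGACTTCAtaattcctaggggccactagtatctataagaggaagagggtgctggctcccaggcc
Tnp1: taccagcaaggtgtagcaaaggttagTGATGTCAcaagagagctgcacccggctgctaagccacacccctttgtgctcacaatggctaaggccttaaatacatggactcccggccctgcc
Tssk2: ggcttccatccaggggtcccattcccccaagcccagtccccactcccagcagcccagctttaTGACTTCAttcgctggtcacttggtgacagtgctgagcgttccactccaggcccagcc
Actl7b: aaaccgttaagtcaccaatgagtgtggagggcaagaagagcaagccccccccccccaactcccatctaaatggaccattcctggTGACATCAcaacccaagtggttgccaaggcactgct
Prm2: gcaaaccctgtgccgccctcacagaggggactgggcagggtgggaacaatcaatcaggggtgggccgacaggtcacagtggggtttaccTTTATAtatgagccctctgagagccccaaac
Ldhc: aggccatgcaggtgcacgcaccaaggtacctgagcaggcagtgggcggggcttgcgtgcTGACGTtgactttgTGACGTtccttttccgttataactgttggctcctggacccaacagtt
Insl3: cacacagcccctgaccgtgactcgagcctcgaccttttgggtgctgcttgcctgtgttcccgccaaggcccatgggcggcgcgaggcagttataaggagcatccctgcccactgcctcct

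The 4 captures were then compared with each other. For this, levels were put on a log2 scale after background correction, loess within arrays and Aquantile between them, and an F test in limma set the spread between captures against the spread between the 2 arrays of a capture, with Benjamini-Hochberg adjustment over 22108 probes. The captures differed beyond array error for 13540 probes, 61.2% of those tested, but mostly by little: the median range between the highest and the lowest capture was 0.28 on the log2 scale (1.21-fold), and 357 probes (1.61%) ranged over more than 2-fold. Of the tested probes, 22.4% were called and highest in capture 1, 15.1% in capture 2, 12.4% in capture 3 and 11.4% in capture 4. As shares of the called probes these were 36.5%, 24.7%, 20.2% and 18.6%. Capture 1 stood apart: 211, 138 and 59 probes differed more than 2-fold between it and captures 2, 3 and 4, against 11 to 46 among the others. Without it 8105 probes passed. With no term for dye 6002 did. The test says that these caps differed, not that the mice did, because section, dissection, amplification, array position and the DEHP sample on the same array were the same for both arrays of a mouse and cannot be told apart from the mouse.

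Insl3 had the widest range of all named genes. Its probe lies on chromosome 8 between 70157953 and 70158012 in mm7. Its net intensity was 6745 in capture 1, 3864 in capture 2, 1863 in capture 3 and 10710 in capture 4, and the normalised log2 levels were 12.63, 12.03, 11.08 and 13.25. The range was 4.52-fold, with an array SD of 0.0699 on the log2 scale and an adjusted p of 8.18e-06 (limma F test, n = 4 captures on 2 arrays each). Captures 1 and 4 were high and captures 2 and 3 low.

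The other Leydig genes that passed were Fabp3, the steroid dehydrogenases Hsd3b1 and Hsd3b6, the cholesterol carrier Star, the sulfotransferase Sult1e1 and the adhesion molecule Vcam1, so 7 of 11 tested genes were called, a share near the 61.2% of all tested probes. Fabp3 had log2 levels of 10.55, 9.43, 9.44 and 10.68, and Hsd3b1 had 9.16, 8.22, 8.46 and 9.39. Star had 7.77, 7.55, 7.76 and 8.07. Of the 7 called genes 5 were highest in capture 4 and 2 in capture 1, against 18.6% and 36.5% of all called probes. Capture 2 was lowest for 6 of the 7, and the matching share of all called probes is not given here. With signals scaled only to the 75th percentile, capture 4 was highest for 4 of the 7 and capture 3 for 3. Fdx1, in contrast, lay between 13.89 in capture 2 and 14.04 in capture 1 and did not pass (limma F test, adjusted p = 0.14), nor did Cyp17a1 at 9.24, 9.03, 9.02 and 9.20 (adjusted p = 0.178).

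Sertoli genes passed in 22 of 30 tests, against 61.2% of all tested probes. Of these 12 were highest in capture 4 and 7 in capture 1, against 18.6% and 36.5% of all called probes. Capture 2 was lowest for 13 of the 22, and the matching share of all called probes is not given here. The lead of capture 4 held under each of the 4 other background and scaling settings tried. Without capture 1, 18 of 30 passed, against 8105 of all 22109 probes tested so. The widest range was that of Ptgds, a prostaglandin D synthase, with log2 levels of 10.80, 9.78, 9.85 and 11.26, a 2.79-fold range (limma F test, adjusted p = 8.18e-06). Captures 4 and 1 were high and captures 2 and 3 low, as for Insl3, Fabp3 and Hsd3b1. The water channel Aqp8 followed with 12.08, 10.74, 11.58 and 11.95 (2.54-fold), and Rhox5 with 13.50, 12.38, 12.53 and 12.93 (2.18-fold). Among other secreted products, Defb19 had 12.79, 12.73, 13.27 and 13.36, Clu 12.27, 12.09, 12.30 and 12.72, and Inha 9.29, 9.68, 9.68 and 9.87. Sertoli genes thus did not rise and fall as a block, as capture 1 was the lowest for 7 of the called genes and the highest for 7.

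Round and elongating spermatid genes pointed to different captures. Of 22 round spermatid genes 21 were called, against 61.2% of all tested probes. Capture 1 was highest for 16 of the 21, against 36.5% of all called probes. Capture 1 kept this lead under each of the 4 other background and scaling settings. Without capture 1, 13 of 22 passed, against 8105 of all 22109 probes tested so. The acrosomal gene Acrv1 had net intensities of 23815, 9227, 12489 and 18717 (2.18-fold on the normalised scale). In log2 levels Spaca1 had 15.82, 14.78, 15.03 and 15.46 (2.06-fold) and Cd46, a complement regulator that in mice is found on the acrosome, had 11.13, 10.00, 9.89 and 10.04 (2.37-fold). Dkkl1 and Zpbp2, the brightest of the list, departed from this and were lowest in capture 1, at 16.27, 16.32, 16.47 and 16.47 for Dkkl1 and at 16.10, 16.42, 16.27 and 16.26 for Zpbp2.

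Of 23 elongating spermatid genes 22 were called, against 61.2% of all tested probes. Capture 2 was highest for 15 of the 22, against 24.7% of all called probes. With signals scaled only to the 75th percentile the lead of capture 2 was lost, with 5 genes highest in capture 2, 8 in capture 1, 2 in capture 3 and 7 in capture 4. Akap4 had 12.24, 13.07, 11.85 and 12.36 (2.33-fold), the sperm glycolytic enzyme Gapdhs 14.54, 15.39, 14.75 and 14.96 (1.80-fold), Tnp1 16.90, 17.39, 16.77 and 16.61 (1.71-fold) and H1f7 17.23, 17.89, 17.43 and 17.30 (1.58-fold). Prm2 ranged by 1.42-fold and Prm1 by 1.57-fold, with adjusted p of 0.00172 and 0.00498 in the limma F test.

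Spermatocyte genes showed no single leading capture, with 18 of 23 called, against 61.2% of all tested probes. Captures 1 to 4 were highest for 7, 5, 5 and 1 of them, against 36.5%, 24.7%, 20.2% and 18.6% of all called probes. Piwil1, a partner of small RNAs in meiotic cells, had 9.30, 8.07, 8.33 and 8.46 (2.34-fold) and Sycp1 of the synaptonemal complex had 10.41, 9.41, 9.46 and 9.76 (2.00-fold), with capture 1 the highest for each. Ccna1, the meiotic cyclin, was lowest there, with 11.13, 12.04, 11.73 and 11.79 (1.88-fold).

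**Figure D3:**
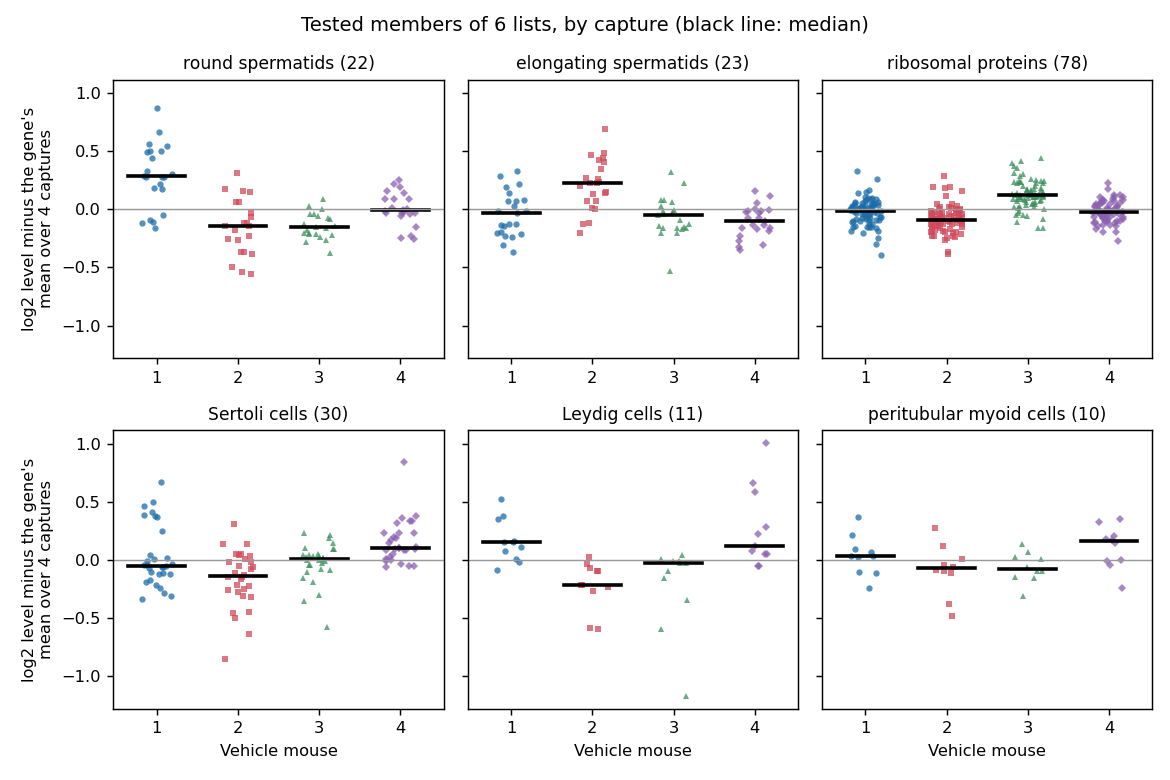
Log2 level of each tested gene of 6 lists minus that gene's mean over the 4 captures, by capture; black lines are medians and the number of tested genes is in brackets. The medians are highest in capture 1 for round spermatids (0.28), in capture 2 for elongating spermatids (0.23), in capture 3 for ribosomal proteins (0.12), in capture 4 for Sertoli cells (0.10), in captures 1 and 4 for Leydig cells (0.15 and 0.12) and in capture 4 for peritubular myoid cells (0.16); with signals scaled only to the 75th percentile the ribosomal and elongating spermatid medians were highest in capture 4 (0.43 and 0.30) and the myoid one in capture 3 (0.21).

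Interstitial and wall markers were read beside the Leydig pattern. Peritubular Acta2 had log2 levels of 9.80, 9.05, 9.12 and 9.75 and Cnn1 had 9.47, 8.78, 9.17 and 9.61, with captures 1 and 4 the higher. The Acta2 levels are those of its brightest probe. Of 3 other Acta2 probes tested, 2 were called and 1 was also highest in capture 1. The brightest members of the list, Myl9 and Tagln, differed from Acta2 and Cnn1 and were both lowest in capture 1. Myl9 had 12.24, 12.39, 12.62 and 12.68 and Tagln 9.48, 9.55, 9.60 and 9.74. In all 6 of 10 tested myoid genes were called, near the 61.2% of all tested probes. Of the 6, 1 was highest in capture 1 and 4 in capture 4, against 36.5% and 18.6% of all called probes. The macrophage lysozyme Lyz2 had 9.21, 8.75, 9.34 and 10.01 (2.40-fold) by its brightest probe, and its other probe, at percentile 33.0, was not tested. In contrast, Aif1 had 15.23, 15.08, 14.94 and 14.83 and Adgre1 8.53, 8.42, 8.79 and 8.66. In all 5 of 10 tested macrophage genes were called, below the 61.2% of all tested probes. Summed net intensity over the myoid list was 7862, 6813, 7628 and 10157 in captures 1 to 4. Most of it was Myl9, with 5104, 4982, 5853 and 7248. Vessel genes differed among themselves, as Flt1 had 7.81, 7.44, 7.71 and 7.85 and Vwf 9.56, 9.59, 9.24 and 9.37. Hbb-bt had 9.49, 8.04, 9.49 and 8.50 (2.73-fold), with captures 1 and 3 the higher. Of its 3 other probes tested, 2 were called and 1 was also highest in capture 3. The alpha globin gene Hba-a1 had 7.74, 7.78, 7.80 and 7.77 and did not pass (limma F test, adjusted p = 0.735). In all 2 of 4 tested red blood cell genes were called, against 61.2% of all tested probes. The part of wall and interstitial tissue in the differences between captures was not tested.

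The 20 named genes with the widest range between captures, picked among probes that passed the F test, spanned 2.79-fold to 4.52-fold. All 20 passed under each of the 11 alternative settings. Those settings reuse the same arrays and the genes were picked for wide ranges, so this adds no separate support. Of the 20 genes, 10 were highest in capture 1, 5 in capture 2, 1 in capture 3 and 4 in capture 4. Glul, glutamine synthetase, had log2 levels of 10.70, 9.01, 9.14 and 9.83, and Agt, angiotensinogen, had 9.76, 8.95, 8.96 and 10.44, so both followed the order of Insl3 in placing captures 2 and 3 low. Prnd, which encodes a prion-like protein of sperm, had 12.31, 10.65, 10.94 and 11.80, and Cylc2 of the sperm head had 13.42, 12.85, 11.82 and 12.45. The mitotic kinesin gene Kif15 had 12.81, 11.82, 11.11 and 11.59. The imprinted antisense RNA Kcnq1ot1 was also highest in capture 1, at 9.55, 8.38, 7.91 and 8.45. Ahcyl2 (9.26, 10.99, 9.48 and 9.92) and the mitochondrial iron carrier Slc25a28 (10.40, 12.09, 10.58 and 10.83) were highest in capture 2. Lmo7 was highest in capture 4, at 7.24, 7.87, 8.02 and 8.88.

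**Figure D4:**
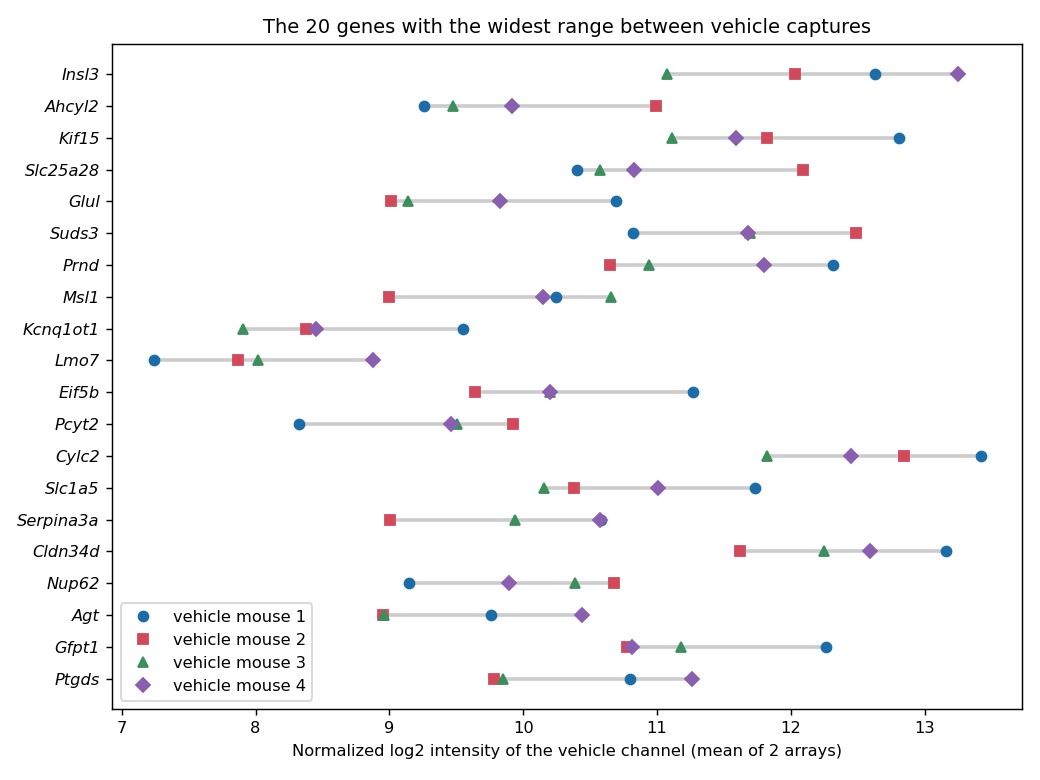
Normalised log2 intensity of the 20 named genes with the widest range between the 4 vehicle captures, with 1 point per capture (mean of 2 arrays) and a grey bar over the range. Insl3 spans the widest range, from 11.08 in capture 3 to 13.25 in capture 4, and 10 of the 20 genes are highest in capture 1.

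At the other end, the genes with the smallest range among the 500 brightest included Rhno1, the initiation factor gene Eif3h, Znrd1as, Nudt9 and Hagh, a glyoxalase. Rhno1 had log2 levels of 15.10, 15.06, 15.05 and 15.03 (limma F test, adjusted p = 0.612). These genes ranged by 1.05-fold to 1.06-fold, and a p above the threshold does not show that they were equal. Ribosomal protein genes as a whole had a median percentile of 97.5 ± 0.149. Of 78 tested, 58 were called, against 61.2% of all tested probes. Capture 3 was highest for 44 of the 58, against 20.2% of all called probes. With signals scaled only to the 75th percentile, however, 2 were highest in capture 3 and 38 in capture 4.

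The vehicle channels were also compared by dye. Without a block for the mouse, limma called 1171 of 22108 probes, 5.3%, between Cy5 and Cy3, of which 1066 were higher in Cy5. Same-numbered arrays hold the same RNA, and with the mouse as a replicate block 9098 probes were called. All vehicle samples in Cy3 lay on slide 1 and all in Cy5 on slide 2, so dye and slide cannot be told apart. Leaving out capture 4 gave 312 calls without the block and leaving out capture 3 gave 540. The median difference between dyes was 0.10 on the log2 scale without regard to sign.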

How the data were processed

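RNA of 4 vehicle captures was measured on 8 Agilent arrays, each capture in Cy3 on 1 array and in Cy5 on another. Mean and median spot intensity were deposited as scanned (Agilent Feature Extraction 9.5.1.1), per the file headers. The deposited log2 table of ratios was not used here, and the submitters' processing notes name limma with no version. Net intensity and percentiles were computed with pandas 2.3.3 from mean signal minus median background over non-control probes, with spots flagged as outliers left out. For tests, intensities were corrected by normexp (offset 50), loess and Aquantile in limma 3.58.1 (R 4.3.3), and a probe entered the fit when both arrays of at least 1 capture had it well above background. The F test modelled dye and mouse. The adjusted p threshold was 0.05. Probe positions follow the array design (mm7).

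Among 41174 probes, an accession gave 22951 their present gene symbol, the file's own symbol 6659 and a synonym 3109, and 8455 stayed unnamed. Single caps of independent mice are the replicates, n = 4, and the number of arrays limits the precision. Same-mouse arrays correlated by 0.697 to 0.906 in their deviations from the mean over mice, and pairing comes from the labels.

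Members, lists and tests were chosen with earlier results of these data known. Named genes were the 25 brightest, the 20 with the widest and 6 with the smallest range, the given markers, and per cell type the 4 highest and those not well above background. Other list members are examples chosen after their values were seen, and a few genes that the rule names are not reported here. The linker histone gene H1f9 was looked up as Hils1. On simulated captures with 200 of 22108 probes changed, 100% were recovered at 2-fold with 8 false calls (spread drawn from the fitted prior) or 33 (fitted SD), and at 1.41-fold 86.5% with 2 and 100% with 22. The simulated probes varied independently and had no dye effect. In the data 61.2% of tested probes were called, so these counts do not measure the false calls there.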

Additional observations from a re-analysis of the deposited data

Results flagged for a closer look

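In groups of 4 captures, 111 sets of values were screened for a capture far from the other 3. The log2 level of Alas2, the erythroid heme synthesis enzyme, was the only one of them past the limit, at 7.97 in capture 1 against 8.51 to 8.62 in captures 2 to 4. Chance flags about 1 in 20 such groups.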

How the results depend on the processing

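The count of probes that differed between captures, 13540 of 22108 tested, lay between 13321 and 15368 under the other background corrections and normalizations. It was 12121 of 41121 with no filter on dim probes. Among probes well above background in all 8 channels it was 13237 of 18998, so the share called moved with the filter. The count fell to 6002 with no term for dye. With signals scaled only to the 75th percentile, 8573 of the 13540 passed again. Leaving out 1 capture gave 8105 to 13025 probes. The dye count, 1171 of 22108, became 3 with signals scaled to the 75th percentile and 9098 with the mouse as a replicate block. It was 312 to 882 without 1 capture, and 2615 of 41121 with no filter on dim probes. With a gene taken as the mean of its probes, the median percentile was 67.4 for Sertoli cells, 60.6 for Leydig cells, 86.7 for spermatocytes, 93.5 for round and 95.3 for elongating spermatids, against 55.2 for all genes ranked that way. Ranked only among probes well above background in all channels it was 67.5, 48.1, 82.5, 91.5 and 95.5, against 58.2 for the genes so measured, so the Leydig median lay above that of all genes in the former ranking and below it in the latter. The Leydig median was also 64.4 when percentiles were averaged over channels and 63.4 in Cy3 channels alone, against 66.0 and 66.1 for all genes. Of 1001 F tests of named genes under alternatives, 906 kept their call, 75 lost it and 20 gained it, and losses were most frequent with no term for dye (28). Dim probes carry only a bound, and RNA amplified in 2 rounds from 1 cap per mouse limits what a difference between captures can show.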

Other observations

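Energy and protein turnover genes, which no comparison above covers, were bright in the captures. Of 20 glycolysis and lactate transport genes, 18 lay above the median of all genes, with a list median of 87.5 ± 0.610 (SD, n = 4). Ldha was at percentile 99.6, Aldoa at 99.4 and the hexokinase Hk1 at 99.1, while the phosphofructokinase Pfkl was at 39.1 and Pfkm at 95.2. Of 19 tested genes 18 were called between captures (limma F test), against 61.2% of all tested probes, and the widest range was that of Pfkm, with log2 levels of 11.95, 12.78, 12.95 and 12.59. The 31 proteasome genes had a list median of 93.5 ± 0.502, and 28 of them lay above the median of all genes. Psmc2, an ATPase of the proteasome cap, led at 98.9, and Psmd13 at 28.2 was not well above background.

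Among ribosomal protein genes, Rpl39l, a paralog expressed in male germ cells, was at percentile 99.4 ± 0.122 with net intensities of 43007, 35872, 47964 and 46985, and its X-linked parent Rpl39 was at 87.4 ± 1.02 with 1176, 916, 1301 and 1392. These are different probes, so the gap between them is one of signal. In the lists from outside the testis, Aqp2 of the kidney was at 78.2, the liver enzyme gene Tat at 77.4 and Rnase10 of the epididymis at 72.3.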
